A study of Arabidopsis thaliana with 45 samples.

Results

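Differences in cytosine methylation between the first offspring generation (S1γ30) and the parent generation (P0γ30) of Arabidopsis thaliana, both irradiated at 30 mGy/h, were described in windows of 200 bp. All windows in the CG context that the authors listed for P0γ30 vs. S1γ30 were taken, each counted once, which gave 184 windows. They are among 2331 different CG positions listed in the whole series and were 0.0324% of the 567185 nuclear windows that hold a CG (the background windows). In S1γ30, 91 windows were hypermethylated (0.0160% of all windows) and 93 were hypomethylated (0.0164%).

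Whole genome bisulfite sequencing was carried out on rosettes of 3 generations (P0, S1, S2), which were left unexposed (γ0) or irradiated at dose rates of 30 mGy/h (γ30) and 110 mGy/h (γ110), with 5 samples in each of 9 conditions. All plants were Columbia, grown in hydroponics, and exposed groups stood for 2 weeks in front of a 137Cs source. The γ0 plants were kept in a separate chamber with equal temperature and light, so they differ from exposed plants in chamber as well. The plants were 14 days old at the start according to the sample labels, whereas the methods of the study give a younger age. P0γ30 plants came from a seed stock with no history of irradiation, S1γ30 plants from seeds of irradiated P0γ30 plants and S2γ30 plants from seeds of irradiated S1γ30 plants. P0γ30 and S1γ30 were thus exposed alike and differ in the exposure of the parent. They also differ in the origin of the seeds, and whether they were grown in the same round is not stated. These cannot be told apart from this comparison alone. How many mother plants the seeds came from is not given in the sources used here.

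Methylation in the CG context is copied to the new strand after each replication by the methyltransferase MET1, with the help of VIM proteins that bind methylated CG sites. In Arabidopsis it is found over transposable elements (TEs), where it accompanies silencing, and alone within the transcribed part of many moderately expressed genes, which is known as gene-body methylation. DNA glycosylases such as ROS1 and DME can remove it, and lost or gained CG methylation can pass to the offspring.

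The level is the fraction of methylated calls at the CG sites of a window, from 0 to 1, and the authors deposited 1 level per group. The spread between the 5 samples and the coverage of a window are therefore unknown here, no level has an error, and no test was made. An intermediate level can come from part of the plants, of the cells or of the CG sites, which cannot be told apart. Intervals on shares of windows are exact 95% binomial intervals (Clopper-Pearson) that cover counting error only.

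The sequences of 6 windows to which the results return are shown with every CG in capitals, because the number of CG sites bears on what a level can show. The first 3 hold a lone CG and a large change, and the fourth holds 7 CG sites in a TE. The third to the last are windows in which S2γ30 was near S1γ30. All are the plus strand of the RefSeq TAIR10.1 genome.
emb2411, chr1:2830001-2830200: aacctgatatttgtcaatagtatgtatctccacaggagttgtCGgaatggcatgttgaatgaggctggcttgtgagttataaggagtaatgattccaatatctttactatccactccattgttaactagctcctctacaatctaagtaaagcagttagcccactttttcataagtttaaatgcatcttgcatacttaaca
AT1G07040, chr1:2161601-2161800: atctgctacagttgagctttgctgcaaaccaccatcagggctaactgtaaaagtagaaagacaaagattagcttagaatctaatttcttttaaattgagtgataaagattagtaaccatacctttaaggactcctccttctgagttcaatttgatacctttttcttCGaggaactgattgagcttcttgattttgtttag
AT5TE16500 near AT5G14140, chr5:4561001-4561200: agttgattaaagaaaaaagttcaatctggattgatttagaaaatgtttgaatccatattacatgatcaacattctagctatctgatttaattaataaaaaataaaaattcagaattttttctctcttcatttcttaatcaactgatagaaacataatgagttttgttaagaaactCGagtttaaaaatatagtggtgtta
AT3TE54480, listed for AT3G32389, chr3:13328801-13329000: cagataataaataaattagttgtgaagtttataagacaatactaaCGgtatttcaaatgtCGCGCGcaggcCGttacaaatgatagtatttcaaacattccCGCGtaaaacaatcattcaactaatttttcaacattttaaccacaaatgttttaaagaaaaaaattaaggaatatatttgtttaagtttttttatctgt
near SCRL5, chr1:22460001-22460200: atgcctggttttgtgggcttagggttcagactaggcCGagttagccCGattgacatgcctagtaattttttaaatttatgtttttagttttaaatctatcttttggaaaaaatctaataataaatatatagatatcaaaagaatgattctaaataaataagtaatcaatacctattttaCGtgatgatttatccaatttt
2-Cys Prx B, listed for LOG7, chr5:1920201-1920400: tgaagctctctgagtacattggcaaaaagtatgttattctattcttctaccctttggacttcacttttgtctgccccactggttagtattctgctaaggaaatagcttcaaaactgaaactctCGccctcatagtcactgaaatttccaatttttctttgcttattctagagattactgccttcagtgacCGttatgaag

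The largest change was found in emb2411, the gene of a helicase of DNA replication. Its window holds a single CG in a coding exon, and the level went from 0.943 in P0γ30 to 0 in S1γ30. For the same window the authors list 0.920 in S1γ0 and 0.892 in S2γ30. Both levels are known only because the window passed the authors' threshold against S1γ30, so the gap to S1γ30 is set by the listing. A lone CG in a coding exon of LDL3, a histone demethylase of the LSD1 family, went from 0.827 to 0.0505, and no other group is listed there. The lone CG of the window listed for AT5G14140 lies outside genes in the TE AT5TE16500, 249 bp from AT5G14140, and went from 0.0569 to 0.770.

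The levels of the 184 windows covered the whole scale. The median was 0.374 in P0γ30 and 0.380 in S1γ30, with increases and decreases about equally frequent. The median absolute difference was 0.3, with quartiles of 0.247 and 0.390 and a range of 0.2 to 0.943. The lower end is the authors' threshold of 0.2. A difference above 0.5 was found for 20 windows and one above 0.7 for 8 windows, of which 7 were hypomethylated and 1, at AT5G14140, was hypermethylated.

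Hypermethylated windows had a median level of 0.193 in P0γ30 and 0.579 in S1γ30. Among them 39 were below 0.1 in P0γ30, and 36 of these reached between 0.1 and 0.7 whereas 3 exceeded 0.7. Both levels were between 0.1 and 0.7 in 35 windows, and 16 rose from there to above 0.7. The remaining window, listed for UGT78D3 and inside the exportin gene XPO1A, was above 0.7 in both groups (0.708 and 0.931). The level in P0γ30 was exactly 0 in 5 windows.

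Hypomethylated windows showed the reverse, with a median of 0.486 in P0γ30 and 0.0573 in S1γ30. In S1γ30, 50 of the 93 were below 0.1, and 45 of these started between 0.1 and 0.7 and 5 above 0.7. Another 24 fell from above 0.7 into the middle range, 18 stayed within it, and CHR4, a chromatin remodeller, was above 0.7 in both (0.933 and 0.709). The level in S1γ30 was exactly 0 in 4 windows.

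In 89 of the 184 windows (48.4%, 95% interval 41.0 to 55.8%) 1 of the groups was thus below 0.1. The lower level in these had a median of 0.0105 and the higher level a median of 0.369, and the higher level was under 0.5 in 70 of them (78.7%). Most of these windows therefore went between no methylation and partial methylation. In the other 95 windows the lower level had a median of 0.418 and the higher one of 0.689.

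**Figure D1:**
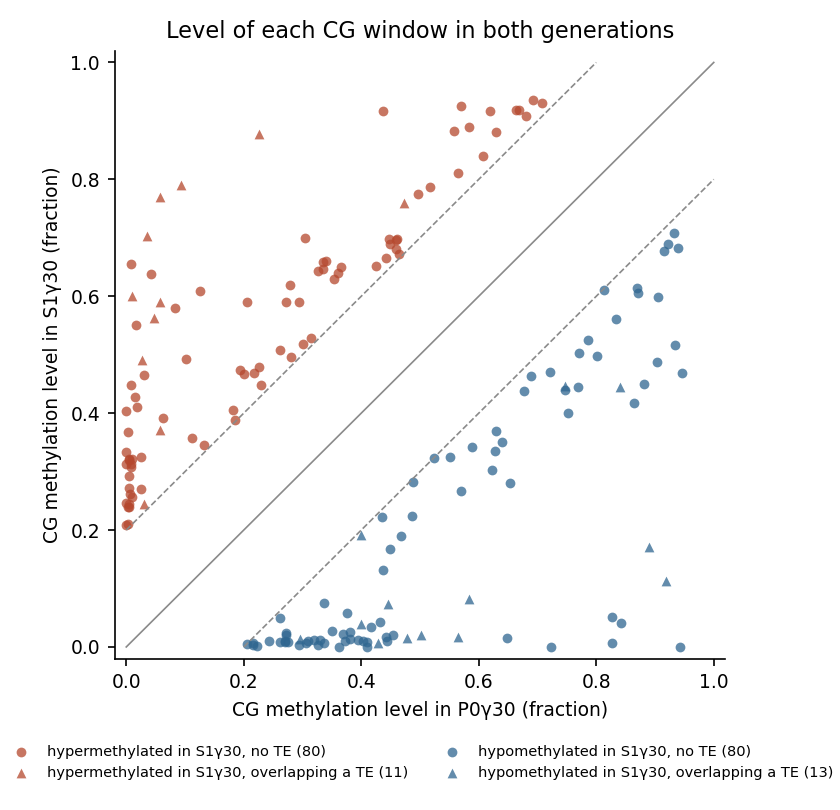
CG methylation level (fraction) of each of the 184 windows in P0γ30 (horizontal axis) and S1γ30 (vertical axis), with windows overlapping a TE as triangles. The solid line marks equal levels and the dashed lines the authors' threshold of 0.2. A row of hypomethylated windows lies along the bottom, near 0 in S1γ30, and a column of hypermethylated windows along the left side, near 0 in P0γ30.

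The windows just inside the threshold were those listed for PKP4 (0.185 in P0γ30 and 0.388 in S1γ30) and ZFP3 (0.00327 and 0.210), the latter inside TAF5, a gene of general transcription, among the hypermethylated. Among the hypomethylated they were a window listed for SHH2 (0.523 and 0.323) and that of a sulfate transporter, SULTR4;1 (0.206 and 0.00543). Windows with smaller differences were not analysed here.

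Among the listed windows, the size of the change went with the number of CG sites. The median absolute difference was 0.713 in the 13 windows with a lone CG, 0.392 in the 42 with 2, 0.268 in the 49 with 3, 0.256 in the 49 with 4 or 5 and 0.262 in the 31 with 6 or more. Lone CG sites made up 11 of the 20 windows with a difference above 0.5. The share of windows with 1 group below 0.1 went the same way, from 12 of 13 with a lone CG to 5 of 31 with 6 or more. The threshold of 0.2 is met by a change of 0.2 at a lone CG, but with 6 sites it takes changes that sum to 1.2 over the sites.

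Multiplied by the number of CG sites, the difference had a median of 0.785 in windows with 2 sites, 0.804 with 3, 1.12 with 4 or 5 and 2.10 with 6 or more. The threshold sets the least product that can be listed, at 0.6 for 3 sites, 0.8 for 4 and 1.2 for 6, and a lone CG cannot exceed 1, so these medians describe the listed windows and do not show how many sites changed. Levels of single sites were not analysed here.

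The product was above 3 in 6 windows, of which 3 overlapped a TE and 3 did not. It was 4.56 in the window listed for AT3G32389 in AT3TE54480, which went from 0.226 to 0.877 over the 7 CG sites shown above. It was 4.35 in AT5TE54610 near AT5G37940, from 0.841 to 0.445 over 11 sites, and 3.60 in AT3TE46185 in a UTR exon of AT3G29130, from 0.890 to 0.170 over 5 sites. Without a TE, it was 3.86 in AT1G07615, which encodes a GTP-binding protein (listed for ATOBGM), from 0.752 to 0.401 over 11 sites in a coding exon. It was 3.57 in the acyltransferase gene PDAT (listed for AT5G13650), from 0.768 to 0.444 over 11 sites, and 3.12 in the transcription factor gene NAC065, from 0.335 to 0.647 over 10 sites. AT5G37940, AT1G07615, PDAT and NAC065 were chosen after their values were seen.

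**Figure D2:**
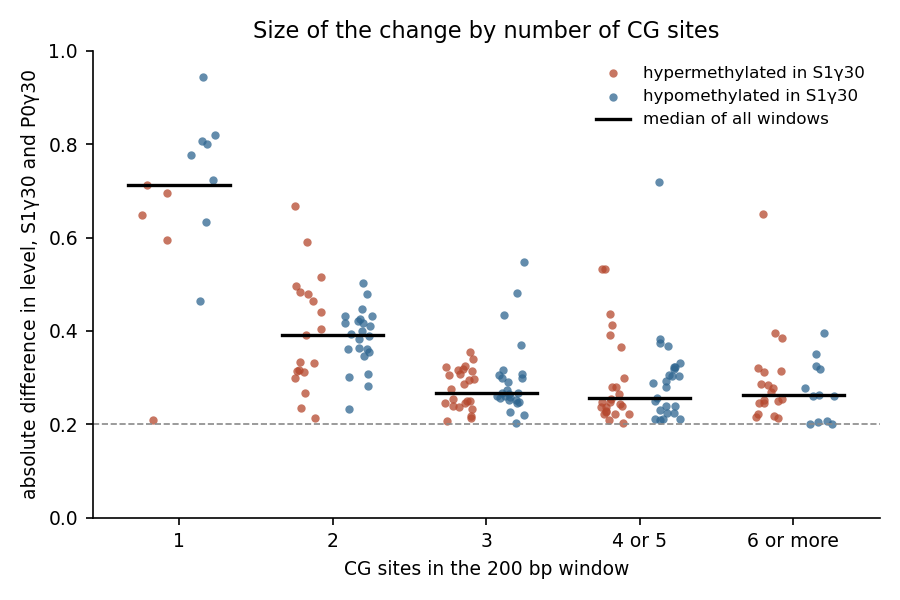
Absolute difference in CG methylation level between S1γ30 and P0γ30 (fraction) by the number of CG sites in the window, 1 point per window, with the median of each class as a black bar and the threshold of 0.2 dashed. The median falls from 0.713 for a lone CG to 0.268 for 3 sites and is similar beyond that.

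The windows lay mostly within genes. By the RefSeq annotation 153 of the 184 windows (83.2%, 76.9 to 88.3%) lay in a protein-coding gene, whereas 58.6% of the background windows did. Another 17 (9.24%) were outside such genes but within 2000 bp upstream of one, against 18.0%, and 14 (7.61%) were elsewhere, against 23.5%. In total 156 of 27444 protein-coding genes were overlapped (0.568%), each by 1 window or, at AT3G18370 and AT5G09410, by 2. The share of windows in protein-coding genes was much the same in S1γ30 vs. S2γ30 (83.8%), P0γ30 vs. S2γ30 (81.2%) and S2γ0 vs. S2γ30 (83.5%). In S1γ0 vs. S1γ30 it was 76.0%. The background windows were taken whatever their methylation level.

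Among the 698 CG sites of the windows, 62.3% were in coding exons and 18.3% in introns, against 41.0% and 8.53% of all CG sites of the genome. UTR exons held 5.73%, against 9.51%. Along the gene the windows were few at the start, and of 5 equal parts counted from the transcription start the first held 9 of 153 (5.88%, 2.72 to 10.9%), the third 44 (28.8%) and the fourth 43 (28.1%). All background windows in genes had 20.1% in each of the first and the third part and 20.2% in the fourth. The genes were long, with a median of 3798 bp against 2931 bp over all windows in genes. Stretches around the centromeres held 14 windows (7.61%, 4.22 to 12.4%), against 16.9% of all windows. Of the hypermethylated windows 78 of 91 were in protein-coding genes, and of the hypomethylated windows 75 of 93. Within genes, the third part held 28 of 78 hypermethylated and 16 of 75 hypomethylated windows, and the fourth part 18 and 25, a difference that was not tested.

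**Figure D3:**
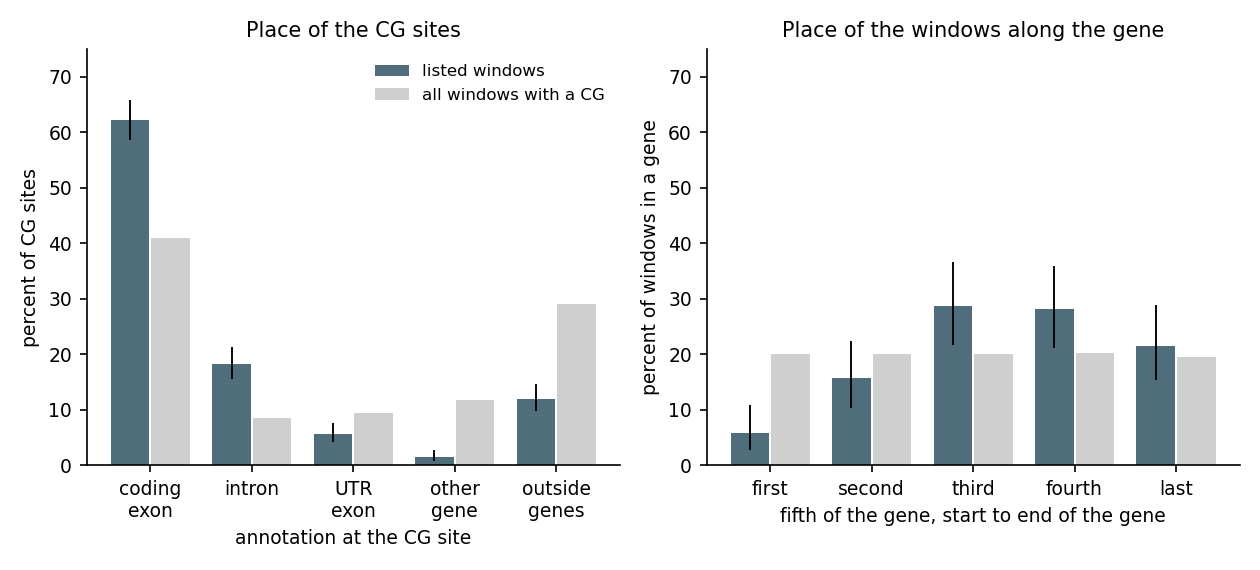
Left, percent of CG sites by annotation in the listed windows (698 sites) and in the background windows; right, percent of windows by position in 5 equal parts of the gene, from the transcription start, for the 153 listed windows in genes and all windows in genes. Error bars are exact 95% intervals of the listed windows. Coding exons and introns hold a larger share of the listed than of the background CG sites, and the part at the gene start a smaller share of the windows.

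The gene that the authors name for a window was in part of the cases not the gene in which it lies. Of the 153 windows in protein-coding genes, 127 were listed under a name that the annotation gives to 1 gene, and 53 of these (41.7%) lay in the named gene. The other 26 were listed under names, some of them older aliases of the gene at the window, that could not be compared. By the authors' classes, 62 windows were promoter, 71 gene body and 51 neither, and 45 of the 62 promoter windows lay inside a protein-coding gene. Of the 57 gene body windows with a comparable name, 52 lay in the named gene. Names given here as "listed for" are those of the authors, and the gene that holds the window is named beside them where the annotation gives one.

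Lists of genes for 5 functions were looked up, with 129 matched genes, beside the 0.568% of all protein-coding genes that were overlapped. The lists were made with earlier results of these data known, so their shares do not test a function. Of 37 matched genes for DNA damage response and repair 0 were overlapped, and of 24 for antioxidant enzymes likewise 0. The lists are incomplete, and 2-Cys Prx B, RPA70C, MCM8 and emb2411, which hold a window, are on none of them. Of 27 genes for DNA methylation and demethylation 1 was overlapped, of 21 for splicing 1 and of 20 for chromatin and transcription elongation 2. All 4 were hypermethylated in S1γ30. AT1G10320 of the splicing list and VIP4 of the elongation list are genes that the study names for several γ30 comparisons, P0γ30 vs. S1γ30 among them.

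The methylation gene was VIM1, listed as ORTH2, which encodes a protein that binds methylated CG sites and is needed to maintain them. Its window has 2 CG sites in a UTR exon and went from 0.00495 in P0γ30 to 0.271 in S1γ30. The level listed was 0.00431 in S1γ0 and 0.0171 in S2γ30. This window of VIM1 was thus close to unmethylated in 3 of the 4 groups with a level. Its S1γ0 and S2γ30 levels are listed only because they differ from S1γ30 by at least 0.2. The rest of the gene was not analysed here.

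VIP4, the Leo1-like subunit of the Paf1 elongation complex, went from 0.00749 to 0.448 at 2 CG sites in an intron, and was at 0.0506 in S2γ30. SSRP1 (AT3G28730, listed for CYP81D11), a subunit of the histone chaperone FACT, went from 0.438 to 0.917 at 2 intron sites and was at 0.454 in S2γ30. AT1G10320, a zinc finger protein of the splicing list, went from 0.424 to 0.652 and was at 0.428 in S2γ30. In each of these genes the S2γ30 level was within 0.1 of P0γ30.

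Other genes that act on DNA or chromatin were found in both directions, of which TTN10, MEI1, DCL4, CLSY1 and HAF01 were chosen after their values were seen. The genes of this paragraph are on none of the lists, and neither is MCM8 (below). RPA70C, which encodes a large subunit of replication protein A, was among the 10 largest increases, from 0.0171 to 0.551, and was at 0.0390 in S2γ30. TTN10, of the GINS replication complex, went from 0 to 0.333 and MEI1, needed for meiosis, from 0 to 0.246. DCL4, a dicer of the small RNA pathways, went from 0.681 to 0.908, and CLSY1, a remodeller that acts in RNA-directed DNA methylation, from 0.497 to 0.775. SWI3C, a subunit of SWI/SNF remodelling complexes, fell from 0.947 to 0.468 and HAF01, a TAF1-type transcription initiation factor, from 0.905 to 0.598. Of these, SWI3C and HAF01 were at 0.95 and 0.921 in S2γ30.

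Among the other large decreases, a lone CG in a coding exon of the phosphatidylinositol 4-kinase gene AT1G49340 (listed for AT1G49350) went from 0.826 to 0.00709. AT1G07040, whose function the annotation does not give, went from 0.842 to 0.0413, again at a lone CG in a coding exon. Its levels were 0.906 in S1γ0, 0.858 in S1γ110 and 0.828 in S2γ30. In this window the pooled level of S1γ30 was below the pooled levels of the other 4 groups. The levels of S1γ0, S1γ110 and S2γ30 are known only because the window passed the authors' threshold against S1γ30. A gap to these groups is therefore set by the listing, and the spread between samples is unknown.

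Outside protein-coding genes, lone CG sites listed for AT5G39473 and AT3G30120 fell from 0.722 to 0 and from 0.648 to 0.0157. Of the 10 largest decreases 7 were at a lone CG, and so were 4 of the 10 largest increases. Among the latter, AT1G51730, a ubiquitin-conjugating enzyme, went from 0.00735 to 0.655 at a lone CG in a UTR exon, with 0.0661 in S1γ0 and 0.0315 in S2γ30. The lone CG near GDU6, named for the GLUTAMINE DUMPER family, went from 0.0421 to 0.637 and was at 0.0370 in S1γ0.

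The largest increases also included windows outside genes in AT3TE42205, 301 bp from AT3G27410, from 0.0572 to 0.591 over 5 CG sites, with 0.0272 in S2γ30. Another was in AT4TE38460, 308 bp from AT4G15120, from 0.0480 to 0.563 over 2 sites, with 0.110 in S2γ30. In S2γ30 both were within 0.1 of P0γ30.

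The TE windows numbered 24 (13.0%, 8.54 to 18.8%), with 11 hypermethylated and 13 hypomethylated. The TE share of the background windows was not computed, because TE positions were not used here. Among listed windows, the TE share was 9.92% in S1γ30 vs. S2γ30, 11.8% in P0γ30 vs. S2γ30 and 15.5% in S1γ0 vs. S1γ30. In S2γ0 vs. S2γ30, 78 of 771 windows overlapped a TE. Differences between these shares were not tested. Changes in the 24 TE windows were larger than in the other windows, with a median absolute difference of 0.472 against 0.287. A difference above 0.5 was found for 11 of 24 TE windows and for 9 of the 160 windows without a TE. TE windows were below 0.1 in 1 group in 17 of 24 cases, against 72 of 160. These measures also went with the number of CG sites (above), which was not matched between TE windows and the others. Only 3 of the 24 overlapped a protein-coding gene, and 6 were in the stretches around the centromeres.

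The hypermethylated TE windows had a median of 0.0569 in P0γ30 and 0.601 in S1γ30. The 5 largest increases were at AT5TE16500 (above), AT2TE18700 (0.0933 to 0.789), AT1TE39010 (0.0345 to 0.703), AT3TE54480 (above) and AT5TE33565 (0.00952 to 0.601). In S2γ30 the levels of AT2TE18700, AT1TE39010 and AT5TE33565 were 0.0769, 0.0359 and 0.0134, near those of P0γ30.

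The hypomethylated TE windows had a median of 0.502 in P0γ30 and 0.0742 in S1γ30. The largest decrease was at a lone CG in AT2TE40015 and AT2TE40020, listed for AT2G22145, from 0.919 to 0.112. It was followed by AT3TE46185 in AT3G29130 (0.890 to 0.170), AT2TE35290 near LBD8 (0.565 to 0.0172), AT1TE21840 near NFD5 (0.584 to 0.0815) and AT3TE62965 (0.502 to 0.0211). The first 2 were at 0.820 and 0.844 in S2γ30.

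In the CHG context, in which methylation in Arabidopsis is found mainly over TEs and silent repeats, 2 windows were listed, and both were also CG windows of this comparison. In the pseudogene AT1G35130 CHG methylation went from 0.0194 to 0.455 over 5 CHG sites, and the CG level from 0.125 to 0.609. In S2γ30 they were 0.0225 and 0.110. At AT3G29130 CHG methylation went from 0.249 to 0.0136 over 15 sites, where CG methylation fell from 0.890 to 0.170. Both contexts changed in the same direction in both windows.

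Neighbouring windows were rare. Only 3 pairs lay within 2000 bp of each other, and both members of each pair were hypomethylated. The pair listed for SHH2 lies 200 bp apart inside AT3G18370, which encodes a C2 domain protein, and went from 0.523 to 0.323 and from 0.677 to 0.438. The pair at the pseudogene AT3G43654 shares AT3TE62965 and lies 1000 bp apart, and went from 0.502 to 0.0211 and from 0.479 to 0.0145. The pair listed for OM64 lies 800 bp apart in introns of AT5G09410, a calmodulin-binding transcription factor, and went from 0.453 to 0.0207 and from 0.330 to 0.0122. The other windows had no further listed window within 2000 bp, and unlisted neighbours were not analysed here.

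Further levels of the same windows come from the other tables, which list a window only if it passed the thresholds there. The comparisons S1γ30 vs. S2γ30 (1844 CG windows, 0.325% of all windows), S1γ0 vs. S1γ30 (129, 0.0227%) and S1γ30 vs. S1γ110 (37, 0.00652%) share the S1γ30 samples with this comparison. P0γ30 vs. S2γ30 (272, 0.0480%) shares the P0γ30 samples. A level read from the first 3 differs from S1γ30 by at least 0.2 by construction, and the values are given side by side without a test. Where a group occurs in several tables its level was the same in all 187 pairs compared.

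For 120 windows an S2γ30 level is listed in a table with S1γ30 or P0γ30. In the 60 hypermethylated ones the median was 0.0698 in P0γ30, 0.571 in S1γ30 and 0.0849 in S2γ30. In the 60 hypomethylated ones it was 0.561, 0.0419 and 0.592. The S2γ30 level was within 0.1 of P0γ30 in 109 of the 120, with a median distance of 0.0211. For the 63 windows without any listed S2γ30 level no such statement can be made.

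In the S1γ30 vs. S2γ30 comparison, 5 windows lay further than 0.1 from P0γ30. The one listed for RPL32B, inside the 16S rRNA processing gene AT5G46420, went from 0.449 in P0γ30 to 0.168 in S1γ30 and 0.678 in S2γ30, with 0.457 in S1γ0 and 0.413 in S2γ0. The S2γ30 level was therefore above all other listed groups of this window. The others were AT1G49340 at 0.585 in S2γ30, the TE window listed for AT3G11880 at 0.542, the window listed for ATEXO70G1 at 0.423 and that in XPO1A at 0.581.

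**Figure D4:**
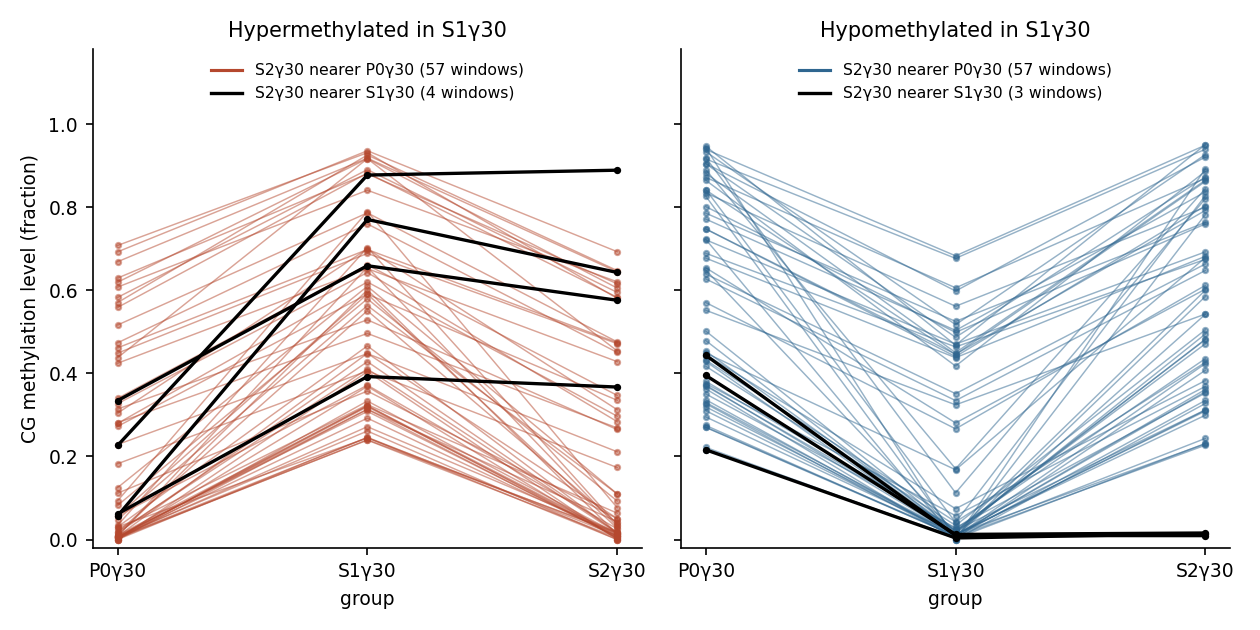
CG methylation level (fraction) in P0γ30, S1γ30 and S2γ30 of the windows with a listed S2γ30 level, 61 hypermethylated (left) and 60 hypomethylated (right), 1 line per window. Black lines are the 4 and 3 windows whose S2γ30 level was nearer S1γ30. Windows are shown only where a table lists them, and for most windows the S2γ30 level comes from the comparison that shares the S1γ30 samples.

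In S1γ0, the unexposed plants of the same generation, a level is listed for 45 windows, 22 hypermethylated and 23 hypomethylated. It was within 0.1 of P0γ30 in 45 of 45, with a median distance of 0.0243 and a largest one of 0.0716. These S1γ0 levels are listed only because they differ from S1γ30 by at least 0.2. For the other windows no S1γ0 level is known, and no such statement can be made. In S1γ110 a level is listed, under the same limit, for 18 windows, and 17 were within 0.1 of P0γ30. The exception was the window listed for AT4G33585, at 0.381 in P0γ30, 0.0259 in S1γ30 and 0.504 in S1γ110. This window overlaps both AT4G33585 and the carbonic anhydrase gene BCA5, and its CG sites are in UTR exons. The authors list 0 windows for P0γ0 vs. P0γ30 and 0 for P0γ0 vs. S1γ0.

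Levels in 4 or more groups are listed for 47 windows, 24 hypermethylated and 23 hypomethylated. S1γ30 lay outside the range of the other groups by 0.2 or more in 43 of them, and by a median of 0.310. The range of the other groups had a median of 0.0482. In NUA, which encodes a protein of the nuclear pore basket, S1γ30 was at 0.698 and the other 4 groups between 0.451 and 0.488. In SWI3C, S1γ30 was at 0.468 and the other 4 groups between 0.922 and 0.95. Most of these windows are known in 4 groups because S1γ30 passed the threshold in several comparisons, so the count describes them and no others.

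Among the windows with 4 groups, ALB1, a subunit of the magnesium chelatase of chlorophyll synthesis, fell to 0.00602 in S1γ30 from 0.336 in P0γ30, with 0.364 in S1γ0 and 0.335 in S2γ30. SIG2, a sigma factor of the chloroplast RNA polymerase, lies close by on chromosome 1 and was at 0.222 in P0γ30, 0.00232 in S1γ30, 0.248 in S1γ0 and 0.231 in S2γ30. An intron of CDKD1;3, a kinase that activates cyclin-dependent kinases, was at 0.443, 0.0165, 0.428 and 0.482 in the same order. These 3 went from partly methylated in P0γ30 to near 0 in S1γ30. Their S1γ0 and S2γ30 levels are listed only because they differ from S1γ30 by at least 0.2, so these gaps are set by the listing.

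The opposite was found in CPK33, a calcium-dependent protein kinase, at 0.00826 in P0γ30, 0.308 in S1γ30, 0.0178 in S1γ0 and 0.00733 in S2γ30. VPS41, which acts in transport to the vacuole, was at 0.0103, 0.322, 0.00957 and 0.00518 in that order, and ATMIN7, which acts in vesicle traffic, at 0.0187, 0.411, 0 and 0.0153. REF4, a component of the Mediator complex, was at 0.00526, 0.322, 0.00448 and 0.0119. In the windows of these 4 genes the CG sites were in coding exons, and the level rose from near 0 in P0γ30. The S1γ0 and S2γ30 levels are again listed only because they differ from S1γ30.

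In 4 further genes the window was already methylated in P0γ30 and more so in S1γ30. CESA6, a subunit of cellulose synthase, was at 0.570 in P0γ30, 0.925 in S1γ30, 0.580 in S1γ0 and 0.647 in S2γ30. MST1, a sulfurtransferase, was at 0.693, 0.936, 0.695 and 0.693. CAS1, the cycloartenol synthase of sterol synthesis, was at 0.583 in P0γ30 and 0.890 in S1γ30, with 0.577 in S1γ110 and 0.595 in S2γ30. RPT2a, a subunit of the proteasome, was at 0.354 and 0.630, with 0.320 in S1γ0 and 0.302 in S1γ110.

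**Figure D5:**
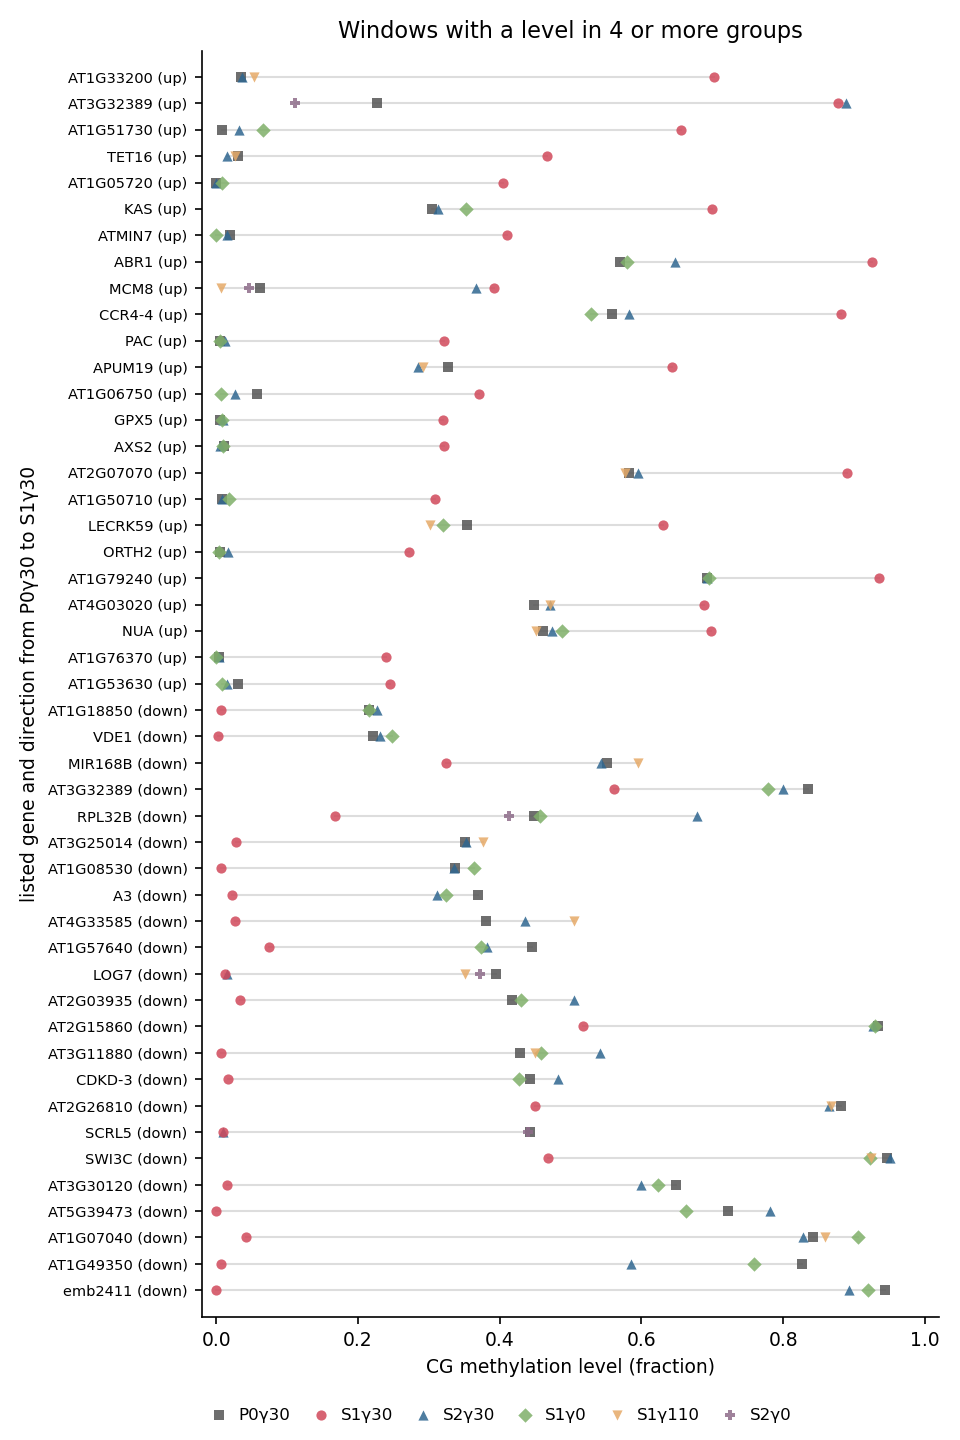
CG methylation level (fraction, horizontal axis) of the 47 windows listed with a level in 4 or more groups, 1 row per window with the listed gene and the direction from P0γ30 to S1γ30, and 1 symbol per group. In 43 rows the S1γ30 circle lies at least 0.2 outside the other symbols, most of which are listed only because they differ from S1γ30. In the SCRL5, LOG7, MCM8 and hypermethylated AT3G32389 rows S2γ30 lies beside it.

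In 7 windows the S2γ30 level was nearer S1γ30 than P0γ30. Near SCRL5, a gene of the small SCR-like proteins, the level at 3 CG sites 165 bp from the gene was 0.443 in P0γ30, 0.00965 in S1γ30 and 0.00938 in S2γ30, and 0.439 in S2γ0. The window listed for LOG7 lies in the gene of the chloroplast peroxiredoxin 2-Cys Prx B, with 1 CG in a coding exon and 1 in an intron, and was at 0.395, 0.0122 and 0.0157. It was at 0.372 in S2γ0 and 0.350 in S1γ110. In both windows the irradiated offspring at 30 mGy/h were near 0 and the other groups with a level were above 0.3.

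The MCM8 window overlaps both HCF152 and MCM8, which acts in homologous recombination, and its 2 CG sites were at 0.0618 in P0γ30, 0.392 in S1γ30 and 0.367 in S2γ30. It was at 0.00725 in S1γ110 and 0.0455 in S2γ0. The window in AT3TE54480 was at 0.226, 0.877 and 0.889, and at 0.110 in S2γ0. That in AT5TE16500 was at 0.0569, 0.770 and 0.643. VDAC5, a gene of the mitochondrial porin family, was at 0.334, 0.659 and 0.576, and the window listed for IQD22, in AT4G23050, at 0.216, 0.00378 and 0.0142.

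Of the comparisons with neither P0γ30 nor S1γ30 samples, S2γ0 vs. S2γ30 (771 windows, 0.136% of all windows) was the 1 that lists any of the windows. It lists 5 of the 184 windows (2.72%, 0.888 to 6.23%), which are 0.649% of its own. They are those of SCRL5, LOG7, MCM8, AT3TE54480 and RPL32B. In the first 4 the direction from S2γ0 to S2γ30 was that from P0γ30 to S1γ30, and in RPL32B it was the opposite, with 0.413 in S2γ0 and 0.678 in S2γ30. The S2γ30 plants descend from S1γ30 plants, so the groups differ in their samples but not in their line.

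AT2G15860, which encodes a BAT2 domain protein, fell from 0.933 to 0.517 at 2 CG sites and was at 0.929 in S1γ0 and 0.926 in S2γ30. AT1G15130, with an endosomal BRO1-like domain, went from 0.629 to 0.880 and was at 0.616 in S2γ30. ACO1, an aconitase, went from 0.201 to 0.467, with no other group listed.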

How the data were processed

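Whole genome bisulfite sequencing of 45 samples in 9 conditions was used. The authors used CLC Genomics Workbench 20.0 for mapping (genome TAIR10.31) and for methylation calls, with a minimum site coverage of 5 in at least 3 samples, and deposited the methylation level per group and window of 200 bp as a fraction. They adjusted p-values in R 3.5.0, added genes with CLC and TEs with bedtools, and listed windows that passed a p of 0.05 and differed by 20% or more. Their p-values, adjusted p-values and differences were not used, and differences were recomputed as S1γ30 minus P0γ30. All samples of a group were pooled by the authors, so coverage and sample totals are unknown here.

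Entries listed for several TEs were counted once (189 entries, of which 187 CG, gave 184 CG windows). Positions were compared with RefSeq TAIR10.1. Of 2331 listed CG windows 0 lacked a CG, and 90 did when shifted by 1000 bp. The background is all windows with a CG, since the number of windows tested by the authors is not given in the sources used here. Stretches around the centromeres are runs of 500 kb bins in which protein-coding genes cover less than 0.5 of the chromosome's median. Upstream means within 2000 bp of a protein-coding gene. Functions were tested on simulated data. Python 3.11.15, pandas 2.3.3, SciPy 1.17.1 and matplotlib 3.10.9 were used.

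The windows and gene lists were chosen with earlier results of these data known. Named, in the text or in the plot of levels in 4 or more groups, are the 10 largest changes in each direction, all CHG windows, windows in genes of the lists, neighbours within 2000 bp, the 5 largest changes in each direction in TEs, windows with levels in 4 or more groups or in a table without P0γ30 and S1γ30, genes the study lists for several γ30 comparisons, and the 2 windows per direction nearest the threshold. DCL4, CLSY1, TTN10, MEI1, CHR4, HAF01, XPO1A, IQD22, AT5G37940, AT1G07615, PDAT, NAC065 and ATEXO70G1 fall outside this rule and were picked with their values in view. The alternatives tried were a difference above 0.3, at least 2 CG sites, joining neighbours, counting every entry, other limits for a low level and other tables for S2γ30.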

Additional observations from a re-analysis of the deposited data

How the results depend on the processing

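Counting every entry (92 hypermethylated and 95 hypomethylated), joining windows within 200 bp (91 and 92) or asking for at least 2 CG sites (86 and 85) moved the counts of 91 and 93 little. A difference above 0.3 left 41 and 52 windows. The authors' own class of gene body held 38.6% of the windows, where the annotation put 83.2% in a protein-coding gene. With a limit of 0.05 or 0.2 instead of 0.1, 42.4% and 55.4% of the windows had 1 group below it. With the S2γ30 level read only from P0γ30 vs. S2γ30, its median was 0.643 over 3 hypermethylated and 0.0142 over 3 hypomethylated windows, because that table lists only windows that differ from P0γ30. Among windows with at least 2 CG sites 11.7% overlapped a TE. An overlap within 200 bp of a TE was not run, as TE positions were not used here. No paired analysis was possible because the tables hold 1 pooled level per group, and for the same reason no sample could be left out. Depth per window is unknown, so small differences between groups cannot be judged.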
